A study of Homo sapiens with 8 samples.

Results

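The AP-1 and immediate early genes described here are FOS, FOSB, FOSL1, FOSL2, JUN, JUNB, JUND, EGR1, IER2 and IER3, 10 genes of the 19775 that could be named on the array. They were taken as every probe set that the platform annotation assigns to one of these genes and to no other, which gave 22 probe sets of 41091 with a single gene. A probe set is a group of short probes that together report 1 transcript signal. FOSL2 has 5 of them, JUN and JUND 4 each, EGR1 3, and the 6 other genes 1 each. The cells were Saos-2, an established human osteosarcoma line, left untreated (3 arrays, replicates 1 to 3) or given a compound labelled Prima for 6 h (3 arrays, replicates 1 to 3) or for 12 h (2 arrays, replicates 1 and 3). All groups are the same line, and every array carries the label Null. The sources used here do not state the dose of compound or any vehicle given to untreated cells. Values are MAS5 signals, a linear brightness per probe set that was scaled to the same trimmed mean on every array, and they can be set against each other between arrays but not between probe sets.

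AP-1 is a transcription factor made of 2 proteins, one of the JUN family (JUN, JUNB, JUND) paired with one of the FOS family (FOS, FOSB, FOSL1, FOSL2) or with another JUN protein, held together by a leucine zipper. FOS, FOSB, JUN, JUNB, EGR1, IER2 and IER3 are immediate early genes: growth factors, serum and stress switch on their transcription within minutes, through MAP kinases and the factors SRF and CREB, with no need for new protein, and the transcripts of several of them decay quickly. In bone, Fos overexpression gives osteosarcomas in mice, and FOSL1 and FOSL2 act in osteoblasts. The earliest treated arrays here were taken at 6 h, well after the usual first peak of such genes.

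The DNA next to the start of a gene can carry sites through which those signals are known to act. It is shown for 5 genes whose arrays behaved differently below. These are EGR1 and IER2 (the widest and the narrowest spread between arrays among the 8 genes tested), FOS (near background), JUN and FOSL2. Each line gives the 150 bases before the annotated start, 5′ to 3′ on the gene's strand, from RefSeq on GRCh38.p14. EGR1 lies at chr5:138465329-138465478 (+), FOS at chr14:75278678-75278827 (+), JUN at chr1:58784048-58784197 (-), FOSL2 at chr2:28392708-28392857 (+) and IER2 at chr19:13150261-13150410 (+). Capitals mark the letters TGACG on either strand (the first 5 letters of the CRE, the site of CREB), the CArG box (the site of SRF), TGACATCA on either strand (a variant of the AP-1 site) and TATAAA on the gene's strand.
EGR1: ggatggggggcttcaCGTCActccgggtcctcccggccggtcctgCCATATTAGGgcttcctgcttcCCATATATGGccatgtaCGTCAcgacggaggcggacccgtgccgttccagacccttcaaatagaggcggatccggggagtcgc
FOS: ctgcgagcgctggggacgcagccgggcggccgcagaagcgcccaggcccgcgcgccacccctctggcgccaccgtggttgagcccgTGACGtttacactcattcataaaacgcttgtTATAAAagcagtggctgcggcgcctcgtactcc
JUN: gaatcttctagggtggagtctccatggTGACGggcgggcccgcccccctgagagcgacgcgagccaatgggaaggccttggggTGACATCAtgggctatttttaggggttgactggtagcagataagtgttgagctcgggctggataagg
FOSL2: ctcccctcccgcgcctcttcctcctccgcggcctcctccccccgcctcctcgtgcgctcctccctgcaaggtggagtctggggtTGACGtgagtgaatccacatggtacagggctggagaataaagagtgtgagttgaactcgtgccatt
IER2: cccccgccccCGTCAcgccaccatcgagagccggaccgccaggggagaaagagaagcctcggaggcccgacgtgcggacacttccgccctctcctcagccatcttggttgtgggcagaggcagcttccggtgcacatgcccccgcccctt

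In these windows EGR1 has 2 CArG boxes, at -105 to -96 and -83 to -74 counted back from the start, and TGACG at 2 places, both as CGTCA because they lie on the other strand. FOS has TGACG at -64 to -60 and TATAAA at -33 to -28. JUN has TGACATCA at -67 to -60 and TGACG at -123 to -119. FOSL2 has TGACG at -66 to -62, and IER2 has it at -140 to -136, with none of the other letters searched. Of the 10 genes, 8 had an entry, all except FOSL1 and IER3. Over 250 bases before the start, TGACG was in 8 of 8, against 21.2% of 35116 gene entries. The full CRE, TGACGTCA, was in JUND (1.65% of entries), TGACATCA in JUN (2.37%), a CArG box in EGR1 (1.16%) and TATAAA in FOS, FOSB and JUNB (6.80%). The letters TGACTCA and TGAGTCA, the classic AP-1 site on either strand, were in 0 of 8 (4.20% of entries). These matches describe letters in a window, and DNA further upstream was not searched. A gene without a match here, such as FOS for the CArG box, may have one outside the window. They overlap by construction, since TGACGTCA holds TGACG.

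Some arrays stood apart. The replicate 2 arrays had median signals of 50.9 (untreated) and 47.5 (6 h), against 14.2 to 24.95 on the 6 others. Arrays that share replicate number 2 or 3 deviated together (correlation across genes 0.49 to 0.64). Replicate 1 arrays did so only weakly (0.11 to 0.16), and pairs with unlike numbers reached 0.33. The ACTB 3′ to 5′ signal ratio, which goes up when RNA is degraded, stood at 2.29 for 12 h replicate 1 and 1.73 for 6 h replicate 1, and at 1.12 to 1.38 elsewhere. The same ratio for GAPDH differed little, at 0.93 to 1.04 on all arrays. It was 1.04 on 12 h replicate 1, 1.01 on 6 h replicate 2 and 0.98 on 6 h replicate 1. Of 10 osteoblast markers 8 had a probe set of their own and all 8 passed the filter. RUNX2 read 1411 to 2350, COL1A1 2764 to 4801 and SPARC 1319 to 2556. The others read lower, with SP7 at 88.8 to 272 and ALPL at 131 to 286. COL1A2 read 26.9 to 99.6, IBSP 32.1 to 77.4 and SPP1 14.5 to 94.2. Of 8 epithelial, immune and endothelial markers 3 passed (EPCAM at 26.0 to 245, PTPRC at 0.473 to 80.6 and PECAM1 at 13.7 to 143), and CDH1, CD3E, CD14, CDH5 and VWF did not.

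A gene was tested where its brightest probe set had a mean log2 signal above 4.22, the median over probe sets, and 61.0% of genes passed this filter. Of the 10 members 8 passed, and FOS and FOSB did not. None of the 8 passed the test in any comparison. By limma with Benjamini-Hochberg adjustment over 12063 genes, 0% of genes were called at 6 h against untreated, 0% at 12 h against untreated and 0% at 12 h against 6 h, with 79, 74 and 88 genes at an unadjusted p under 0.05 and smallest adjusted p of 0.99989, 0.99994 and 0.99998. With the replicate number as a block the counts of calls were again 0, with 493, 262 and 297 genes under an unadjusted 0.05, and with array weights 0, with 360, 634 and 106. The counts of 79, 74 and 88 lie far below the share of 0.05 that calibrated p-values give when nothing differs. The p-values of the main fit may thus be too large and its intervals too wide. The lack of calls does not show a lack of change. What follows is therefore a description of signals, their spread and their intervals. In bulk RNA, fewer cells with a transcript and less transcript per cell cannot be told apart.

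FOS, the founding partner of JUN in AP-1, was near background on every array. Its 1 probe set read 5.13, 14.8 and 7.61 in untreated cells, 9.00, 8.34 and 2.12 after 6 h, and 2.99 and 1.88 after 12 h. Both 12 h arrays lay under all untreated arrays, but 2 of the 8 values, 6 h replicate 3 and 12 h replicate 3, were under the floor of 2.39. The floor was set at the 10th percentile of all signals. How many genes as dim as FOS had both 12 h arrays below was not counted. With no filter, 44.2% of all genes were above 0 at 12 h against untreated cells, with a median log2 difference of -0.08. FOSB, a FOS relative that is induced together with FOS, read 2.70, 12.7 and 1.32 in untreated cells, 4.50, 17.6 and 1.71 after 6 h, and 4.55 and 1.92 after 12 h. All 3 replicate 3 arrays were under the floor, and the 2 highest values were those of the replicate 2 arrays, whose whole signal range starts higher. No fold change is given for either gene.

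FOSL1 (FRA-1) lacks the strong transactivation domain of FOS. Its probe set read 143, 127 and 92.6 in untreated cells, 100.2, 152 and 147 after 6 h, and 164 and 109.8 after 12 h. The 3 groups overlapped. The same-numbered arrays did not move together, with log2 differences at 6 h of -0.51, 0.26 and 0.66 in replicates 1, 2 and 3. The limma difference was 0.14 ± 0.32 (SE) at 6 h and 0.17 ± 0.36 at 12 h, with 95% intervals of -0.55 to 0.83 and -0.60 to 0.95.

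FOSL2 (FRA-2), which drives collagen production in osteoblasts in mice, was the only member whose 6 h arrays all lay under the untreated ones. Its brightest probe set read 313, 370.4 and 499.9 after 6 h, against 503, 547 and 565 in untreated cells. After 12 h the signals were 404 and 601, one on each side of the untreated range. A lower group without overlap at 6 h was seen in 1 of 8 members and in 1.51% of all genes tested, and a higher one in 0 of 8 and 2.03%. The difference was -0.47 ± 0.26 (SE), a ratio of 0.720, with a 95% interval of -1.04 to 0.09. It was negative in each same-numbered pair, at -0.68, -0.56 and -0.18. With the replicate block the interval was -0.83 to -0.11, and the adjusted p was 0.831 (0.99989 without the block).

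The 4 further FOSL2 probe sets gave differences at 6 h of -0.15 ± 0.32, -0.48 ± 0.39, -0.46 ± 0.45 and -0.91 ± 0.55 (SE), so all 5 were below 0 and none was called. The groups overlapped in these 4. The third brightest, for instance, read 90.3, 151 and 187 after 6 h against 149, 300.2 and 155 in untreated cells. At 12 h the 5 split, with 3 above 0 and 2 below, from -0.51 ± 0.62 to 0.33 ± 0.36.

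**Figure D1:**
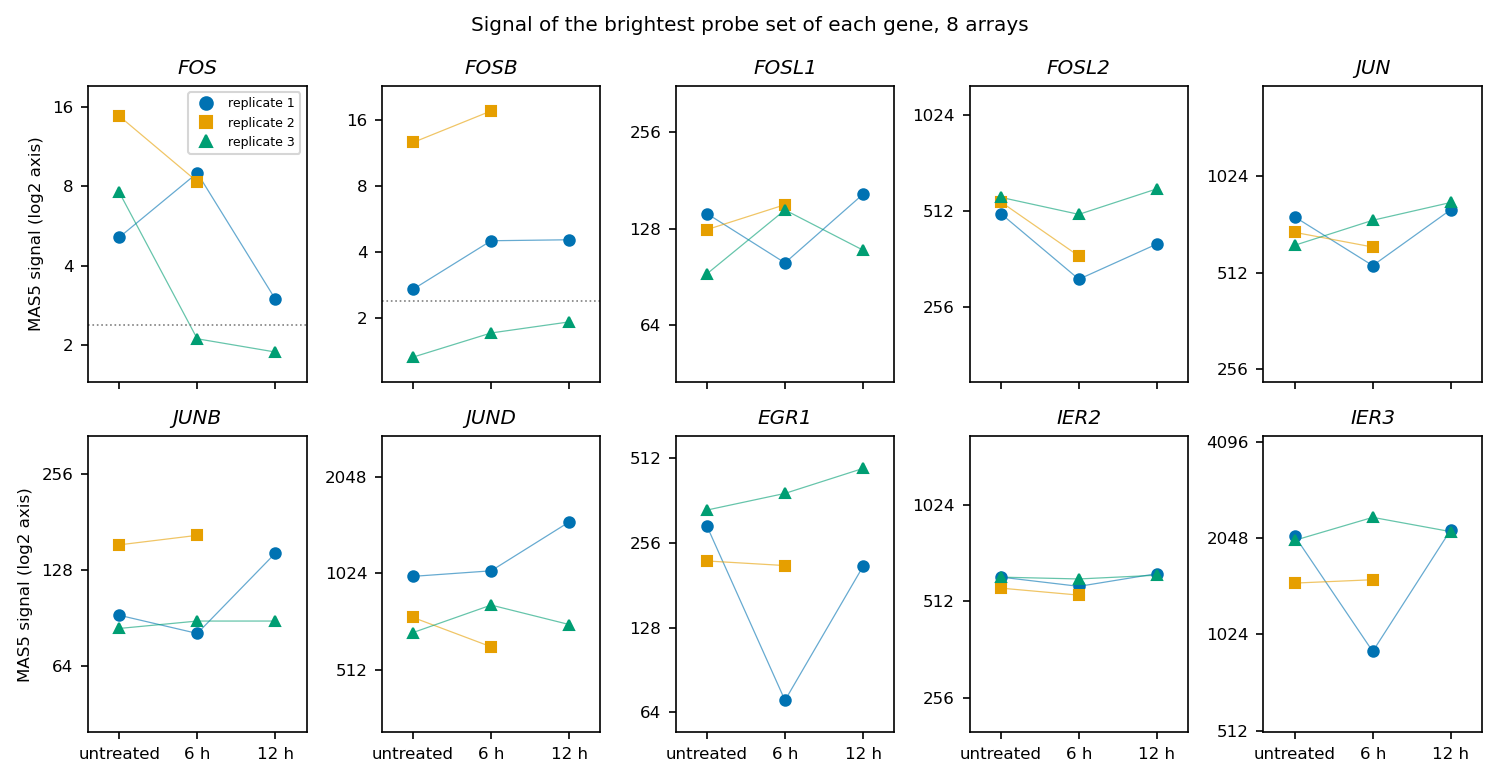
MAS5 signal of the brightest probe set of each of the 10 genes on 8 arrays, in untreated cells and after 6 h and 12 h (log2 axes that differ between panels). Points are single arrays, thin lines join arrays of the same replicate number, and the dotted line is the floor of 2.39. EGR1 and IER3 have 1 low point, 6 h replicate 1, and IER2 is nearly level.

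JUN, the most active partner in AP-1, did not separate at 6 h. Its brightest probe set read 766, 685 and 624 in untreated cells, 539, 616 and 747 after 6 h, and 806 and 849 after 12 h. Both 12 h arrays lay above all arrays of the other groups. The difference was 0.26 ± 0.26 (SE) for 12 h against untreated cells and 0.40 ± 0.26 for 12 h against 6 h, with 95% intervals of -0.29 to 0.82 and -0.15 to 0.95. This probe set's type can bind related transcripts, and the others differed from it. At 12 h the second gave 0.26 ± 0.38 and the remaining 2 gave -0.40 ± 0.46 and -0.49 ± 0.85. The dimmest of the 4 had the widest spread, at 9.60, 35.0 and 95.2 after 6 h against 35.2, 94.4 and 91.3 in untreated cells.

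JUNB, which can restrain JUN, overlapped between all 3 groups. It read 92.4, 153 and 84.0 in untreated cells, 81.1, 164 and 88.6 after 6 h, and 144 and 88.6 after 12 h. Both replicate 2 arrays and 12 h replicate 1 stood high, and the 5 others lay between 81.1 and 92.4. The difference was -0.0044 ± 0.38 (SE) at 6 h and 0.09 ± 0.43 at 12 h. JUND, the JUN protein that is made most steadily in resting cells, read 1002, 746 and 669 in untreated cells, 1043, 604 and 815 after 6 h, and 1482 and 709 after 12 h. The highest value was that of 12 h replicate 1, whose ACTB ratio was 2.29, and the other 12 h array lay inside the untreated range. The difference was 0.01 ± 0.31 at 6 h and 0.37 ± 0.35 at 12 h. The 3 further JUND probe sets were too dim to test, with signals of 0.877 to 54.8 over the 8 arrays.

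EGR1, a zinc finger factor and a standard readout of the SRF arm, varied most among the 8 members past the filter. Its brightest probe set read 294, 221 and 335 in untreated cells, 70.6, 213 and 384 after 6 h, and 211 and 471 after 12 h. A single array, 6 h replicate 1, stood low, and the highest signal of the 8 arrays was 6.67 times the lowest. The second probe set showed the same array low, at 30.3 after 6 h in replicate 1 against 130.3 in untreated replicate 1, with the 6 other arrays between 62.1 and 161. In the third, 11.2 on that array was close to 8.87 on 6 h replicate 3 and 13.4 on untreated replicate 3. The difference at 6 h was -0.64 ± 0.51 (SE) by the brightest probe set, with a 95% interval of -1.73 to 0.46, and 0.034 without 6 h replicate 1. At 12 h it was 0.18 ± 0.57, with an interval of -1.05 to 1.40.

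IER2, a nuclear protein of the immediate early response, was among the most level of the genes tested. It read 609, 563 and 609 in untreated cells, 570.2, 535 and 601 after 6 h, and 625 and 618 after 12 h. The highest signal was 1.17 times the lowest, and 0.0497% of genes tested had a smaller range on the log2 scale. Each 6 h array lay slightly under its same-numbered untreated array, by log2 differences of -0.10, -0.07 and -0.02, and each 12 h array slightly over it, by 0.04 and 0.02. The limma difference was -0.06 ± 0.22 (SE) at 6 h and 0.07 ± 0.24 at 12 h, and the 12 h value became -0.093 after quantile normalization.

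IER3, which can protect cells from apoptosis and is induced by NF-kappaB, read 2077, 1479.6 and 2012 in untreated cells, 905, 1516 and 2374 after 6 h, and 2169.7 and 2142 after 12 h. The lowest array was again 6 h replicate 1, while 6 h replicate 3 was the highest of all. The difference was -0.31 ± 0.31 (SE) at 6 h and 0.23 ± 0.35 at 12 h, with 95% intervals of -0.98 to 0.36 and -0.51 to 0.98. Without 6 h replicate 1 the 6 h value was 0.048.

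**Figure D2:**
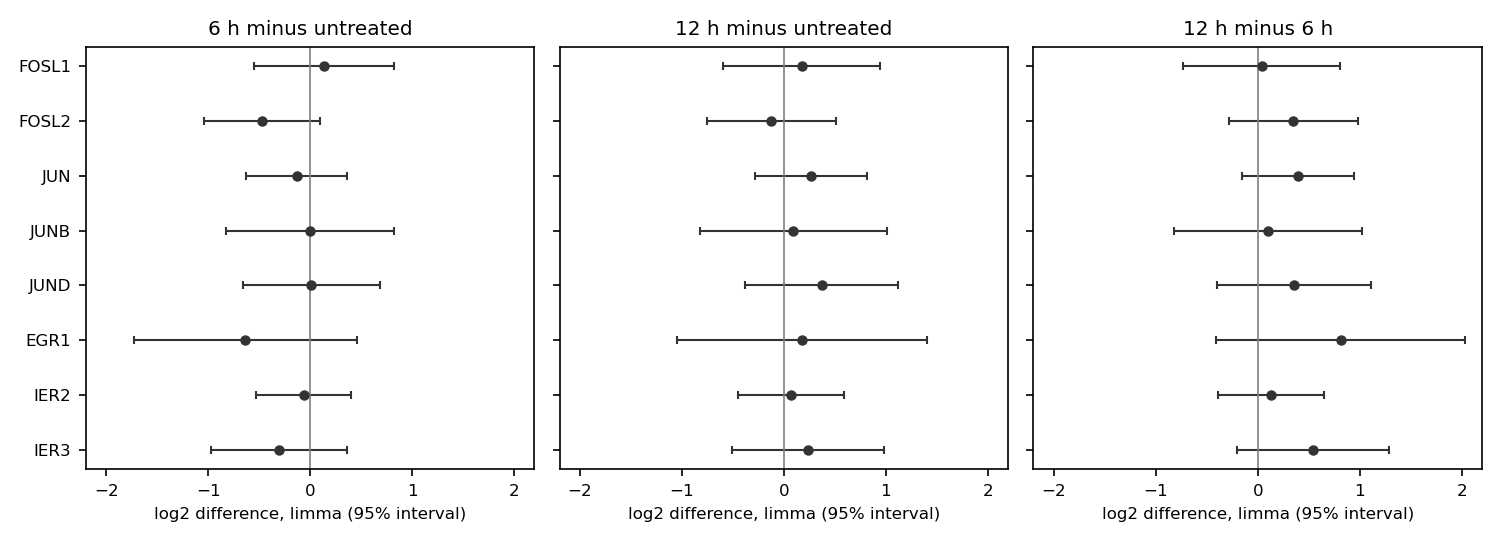
Log2 difference in signal of the 8 tested genes in the 3 comparisons, from limma without the replicate block, with 95% intervals from the fit (brightest probe set, 8 arrays). Every interval crosses 0, and those of EGR1 are the widest.

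At 6 h against untreated cells 2 of 8 members were above 0 and 6 below, with a median log2 difference of -0.10, against 0.02 over all genes tested. At 12 h against untreated cells 7 of 8 were above 0 (median 0.18, against 0.08 over all genes, of which 59.9% were above 0). JUN, IER2 and IER3 had both 12 h arrays above all untreated ones, 3 of 8 members against 9.60% of genes tested, and 0 of 8 had both below, against 4.89%. JUN did so only by its brightest probe set. For IER2 the gap was small, with 618 at 12 h in replicate 3 against 609 in untreated replicate 1. At 12 h against 6 h all 8 were above 0 (median 0.35, against 0.06 over all genes, of which 57.2% were above 0). JUN and IER2 did not overlap there, 2 of 8 against 7.10% of genes, and 0 of 8 lay without overlap below, against 4.50%. These comparisons share arrays. Centring each array on its median moved the 12 h median of all genes to 0.66 and that of the members to 0.76, and with quantile normalization 6 of 8 were above 0, at a median of 0.09 against 0.07. Averaging all probe sets of a gene left 5 of 8 above 0 at 12 h (median 0.045), against 41.3% of all genes (median -0.08). The counts also turned on single arrays. Without 6 h replicate 1, the members above 0 were 4 of 8 at 6 h (median 0.0060) and 6 of 8 for 12 h against 6 h (median 0.16). The shares of all genes were 50.3% and 58.7%. Without 12 h replicate 1, they were 5 of 8 at 12 h (53.3% of all genes) and 5 of 8 for 12 h against 6 h (51.5%). Without untreated replicate 3 they were 0 of 8 at 6 h (51.8% of all genes) and 5 of 8 at 12 h (57.7%).

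The array 6 h replicate 1 was looked at by itself after its values had been seen. Against untreated replicate 1, 7 of 8 members were lower there, with a median log2 difference of -0.51, against 0.04 over all genes tested. EGR1 was at -2.06, IER3 at -1.20, FOSL2 at -0.68, FOSL1 and JUN both at -0.51 JUNB at -0.19 and IER2 at -0.10, and JUND was at 0.06. A difference of -1 or less was reached by 2 of 8 members (EGR1 and IER3) and by 7.64% of genes tested. This array was the lowest of all 8 for EGR1, FOSL2, IER3, JUN and JUNB, 5 of 8, against 16.0% of genes tested. The other 6 h pairs did not share this. The members' medians were -0.06 in replicate 2 and 0.22 in replicate 3, with 5 and 2 of 8 below 0.

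**Figure D3:**
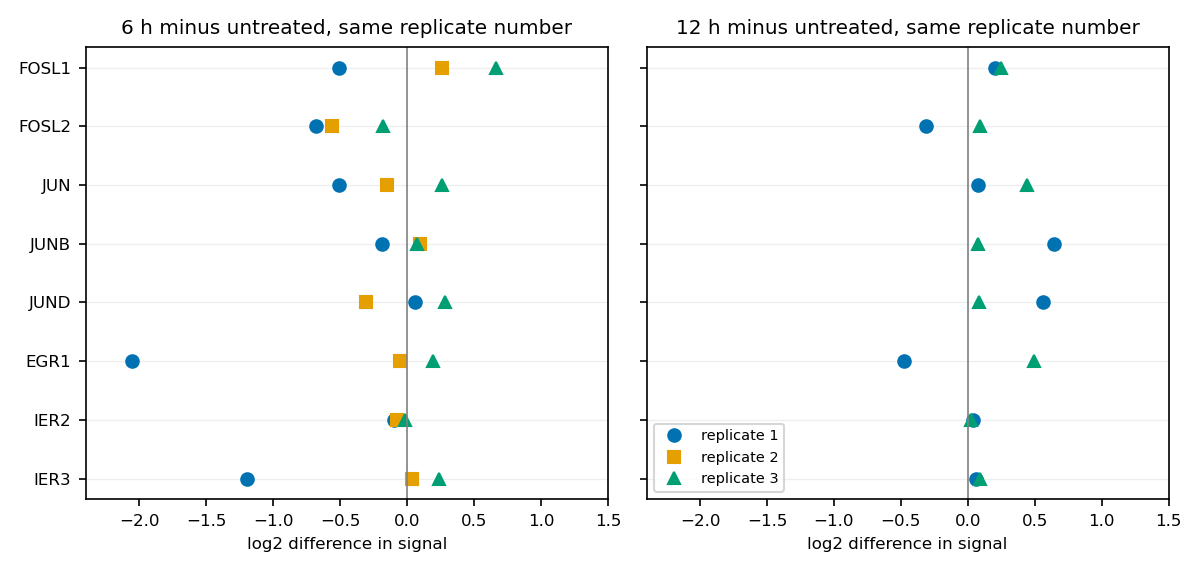
Log2 difference in signal between a treated array and the untreated array of the same replicate number, for the 8 tested genes at 6 h (left, 3 pairs) and 12 h (right, 2 pairs). Replicate 1 lies furthest to the left at 6 h for 7 of the 8 genes, and the 12 h pairs lie right of 0 except for FOSL2 and EGR1 in replicate 1.

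All 8 members were higher on 12 h replicate 1 than on 6 h replicate 1, by 1.58 on the log2 scale in EGR1, 1.26 in IER3, 0.83 in JUNB, 0.71 in FOSL1, 0.58 in JUN, 0.51 in JUND, 0.37 in FOSL2 and 0.13 in IER2. A difference of 1 or more was reached by EGR1 and IER3, 2 of 8, against 8.19% of genes tested. The low values of these genes on 6 h replicate 1 had already been seen. The rise from that array is thus in part built in and is not a separate result. In replicate 3 the difference was 0.29 in EGR1, 0.27 in FOSL2, 0.18 in JUN, 0.04 in IER2 and 0.0002 in JUNB. It was -0.15 in IER3, -0.20 in JUND and -0.42 in FOSL1. On 12 h replicate 1, EGR1 and FOSL2 were still under untreated replicate 1, by log2 differences of -0.48 and -0.32, and the 6 others were above it. Among the replicate 1 arrays the ACTB ratio was 1.34 in untreated cells, 1.73 after 6 h and 2.29 after 12 h. The part of RNA quality in these values was not tested.

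**Figure D4:**
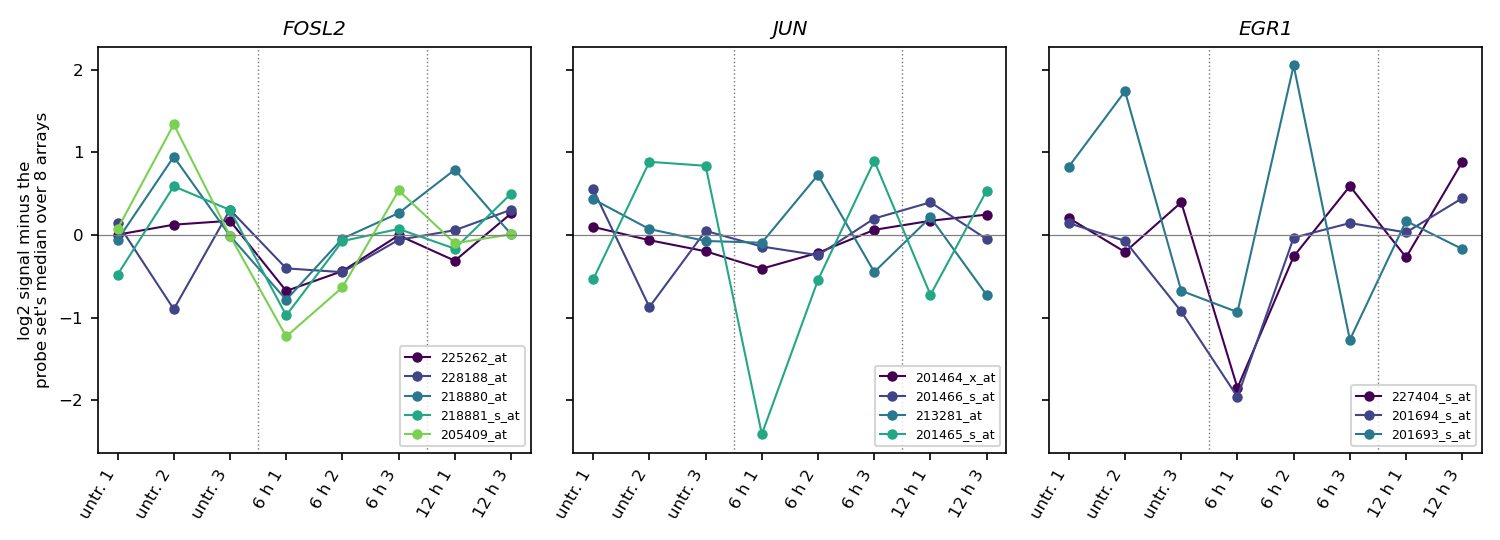
Log2 signal of every probe set of FOSL2 (5), JUN (4) and EGR1 (3) on each array, less that probe set's median over the 8 arrays. Dotted lines part the untreated, 6 h and 12 h arrays. All 12 lie under their own median on 6 h replicate 1, and the JUN probe sets differ among themselves on the other arrays.

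Some genes known to respond to AP-1 in other cells were low on the same array. Of 17 such genes 13 were tested, and 6 of them (46.2%) had log2 differences of -1 or less in the replicate 1 pair at 6 h, against 7.64% of all genes tested. These 6 were named after their values were seen. HBEGF, a growth factor of the EGF family, read 219.6, 175 and 194 in untreated cells, 58.2, 235 and 255 after 6 h, and 216 and 198 after 12 h. IL11, a cytokine that acts on bone, read 449.8, 2261 and 2279 after 6 h, against 2003, 1187 and 1531 in untreated cells. PLAUR, the urokinase receptor, read 367, 895 and 1369 after 6 h, against 1097, 759.9 and 946 in untreated cells. In these 3 genes the 2 other 6 h arrays lay above their untreated partners. CD44, PLAU and LIF had differences of -1.70, -1.52 and -1.57 in the replicate 1 pair, and LIF alone was also lower in replicate 2, at -1.05. Over the 13 genes the median was -0.74 in replicate 1 and 0.24 and 0.39 in replicates 2 and 3. In the replicate 1 pair 4 of the 13 were above 0, and 1 had a difference of 1 or more (SPP1, at 1.56).

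**Figure D5:**
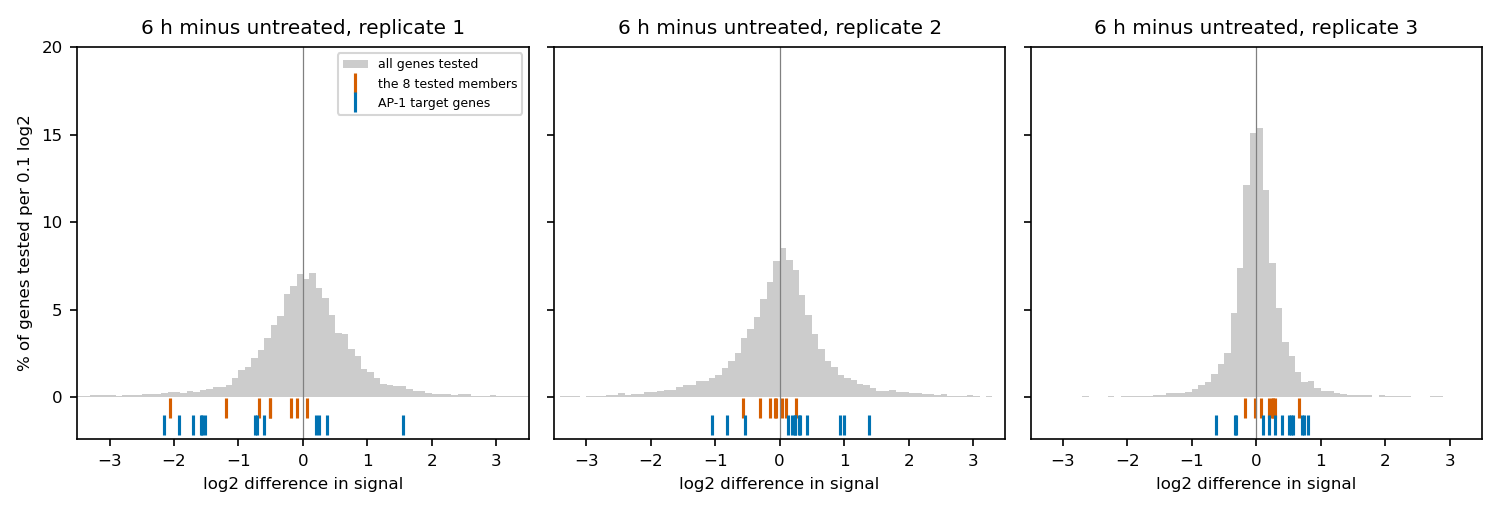
Log2 difference between the 6 h and the untreated array of each replicate number, as the percentage of the 12063 genes tested in bins of 0.1 (grey), with the 8 tested members (orange ticks) and 13 AP-1 target genes (blue ticks). The ticks reach furthest left in replicate 1, and their medians lie between -0.06 and 0.39 in replicates 2 and 3. Genes beyond the axis are not drawn.

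Some other immediate early genes were low on this array too. Of 36 listed, 29 were tested, and 5 (17.2%) had differences of -1 or less in the replicate 1 pair at 6 h, namely CCN2, SGK1, RHOB, SIK1 and PLK2, against 7.64% of all genes tested. In the same pair 10 of the 29 were above 0, and 2 had differences of 1 or more. CCN2, a matrix protein gene driven by SRF and YAP, read 394, 2451 and 2539 after 6 h, against 2547, 1646 and 1652 in untreated cells. PLK2, a polo-like kinase, read 169.5, 966 and 1088 after 6 h, against 1259, 1103 and 1015 in untreated cells. DUSP1, the phosphatase that switches MAP kinases off, and CCN1, a relative of CCN2, differed less in this pair, by -0.24 and -0.17, with DUSP1 at 1639.5, 1621 and 1909.7 after 6 h against 1936, 1931 and 1751 in untreated cells. Of the 22 MAP kinases and SRF or TCF regulators tested, 11 were above 0 in this pair (median -0.027). A difference of -1 or less was reached by 1 of them (MAP3K5), 4.55% against 7.64% of all genes tested. On this array 5 of the 22 (22.7%) were lowest, against 16.0% of all genes. SRF was among the 5, at 190.1, with 269 to 455 on the 7 other arrays. Of the 10 bZIP partners of FOS and JUN tested, 6 were above 0 in this pair. ATF7 and MAFF had differences of -1 or less, and only ATF7 was lowest on this array.

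As groups, the other genes of the pathway gave no call in any comparison. Of the 29 other immediate early genes 14 were above 0 at 6 h (median -0.03) and 15 at 12 h (median 0.02). The smallest p at 6 h was that of PHLDA1, a pleckstrin homology protein, at 0.70 ± 0.33 (SE), and at 12 h that of ATF3, a stress-induced bZIP factor, at 0.68 ± 0.39. Of 10 tested bZIP partners 8 were above 0 at 6 h (median 0.17) and 6 at 12 h (median 0.05), led at both times by MAFG, a small MAF protein, at 0.69 ± 0.39 and 0.67 ± 0.44. Of 22 tested MAP kinases and SRF or TCF regulators 12 were above 0 at 6 h (median 0.06) and 15 at 12 h (median 0.13). MAPK3, which encodes ERK1, stood at -0.92 ± 0.52 at 6 h, and ELK4, a TCF partner of SRF, at 0.46 ± 0.34 at 12 h. Of the 13 AP-1 target genes 4 were above 0 at 6 h (median -0.22) and 6 at 12 h (median -0.01), with LIF at -0.64 ± 0.43 at 6 h and the gelatinase MMP9 at -1.17 ± 0.65 at 12 h. Several of these sizes rested on 1 array. MAPK3 at 6 h was -0.33 without 6 h replicate 2, LIF at 6 h was -0.25 without 6 h replicate 1 and -1.09 without 6 h replicate 3, and MAFG was 0.31 at 6 h and 0.29 at 12 h without untreated replicate 1 (0.44 at 12 h without 12 h replicate 3). Without untreated replicate 2, the 12 h values were 0.36 for ATF3, 0.13 for ELK4 and -0.71 for MMP9. Adjusted p was 0.99989 for each of the genes named at 6 h and 0.99994 for each at 12 h. For 12 h against 6 h, 16 of 29 other immediate early genes were above 0 (median 0.06, against 0.06 over all genes). So were 5 of 10 bZIP partners (0.01), 17 of 22 regulators (0.08) and 6 of 13 target genes (-0.05, or 0.26 with the block). By list, the smallest p were for NR4A2 (-2.03 ± 1.03), BATF3 (-0.76 ± 0.52), MRTFA (0.38 ± 0.35) and IL6 (-1.35 ± 0.59). Their adjusted p was 0.99998.

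Among the tested members, EGR1 and IER3 were the pair most alike over the 8 arrays (Pearson's r of log2 signal 0.903), followed by FOSL2 and EGR1 (0.860), and JUNB and IER2 were least alike (-0.497). The median over the 28 pairs was 0.357. These are descriptions over arrays that share replicate numbers and signal range, and carry no p. Among all genes tested, AKAP12 (r = 0.991), CREB3 (0.991) and TMEM165 (0.989) were most like EGR1, HINT2 (0.943), C2orf42 (0.924) and PRELID1 (0.8998) most like JUN, and BNIP3 (0.945), NMRK1 (0.925) and PWRN2 (0.922) most like FOS, whose own values lay partly under the floor. These were the 3 highest of 12063 values for each member, so their size reflects selection.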

How the data were processed

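The deposited values are linear probe-set intensity, deposited by the authors. Per the submitters' processing notes they were computed with MAS5, whose version is not given in the sources used here. The table held 54675 probe sets, of which 62 controls were left out. The members and gene lists were chosen with earlier results of these data known. Labels gave the groups and replicate numbers. Nothing in them ties a replicate to a culture of its own. The p-values therefore cover only the variation among these 8 arrays, possibly technical, and the number of arrays limits precision. The mutation that the labels give for the line is not reported here.

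Genes were represented by the brightest probe set with 1 symbol. Signals under the 10th percentile (2.39) were raised to that floor and then put on the log2 scale, which understates changes of dim genes. The 3 groups were fitted together with limma 3.58.1 (lmFit, eBayes with a variance trend) in R 4.3.3, with two-sided p adjusted by Benjamini-Hochberg over all 12063 genes, threshold 0.05. A second fit used every probe set past the filter (27306). Correlation of deviations across genes was 0.108 to 0.637 in 7 same-numbered pairs of arrays and -0.576 to 0.333 in 14 others. Deviations within a group sum to 0, so a part is built in. Differences between same-numbered arrays are therefore given, and a fit with the replicate block was set beside the main one. The main fit has no replicate term, so SEs, intervals and p ignore the pairing unless the block is named. Its median SE over genes at 6 h was 0.35, against 0.25 with the block. From each pathway list at least the gene with the smallest p in each comparison was named. On simulated data of 12063 genes, the fit recovered 10.0% of genes changed 2-fold at 6 h and 5.03% at 12 h. For 4-fold changes it recovered 53.7% at 6 h and 43.7% at 12 h, and for 8-fold changes 70.4% and 63.7%. The simulated arrays had independent noise and shared no deviation by replicate number, unlike the real arrays. These rates therefore need not hold for the real data. No replicate 2 at 12 h was used here.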

Additional observations from a re-analysis of the deposited data

Results flagged for a closer look

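IER2 was singled out because its 3 arrays at 6 h all lay under their same-numbered untreated arrays and its 2 arrays at 12 h all lay over theirs. The 12 h minus 6 h difference was 0.13 ± 0.24 (SE) on the log2 scale and did not pass (limma adjusted p = 0.99998). Means were 621 ± 4.91 (SD, n = 2) after 12 h and 569 ± 33.0 (SD, n = 3) after 6 h. After quantile normalization the difference was -0.025. Groups of 3 and 2 arrays are too small to look for single outlying arrays by a test of the gap.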

How the results depend on the processing

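No gene was called in the 3 comparisons under any of the 21 alternatives, 8 of which left out 1 array. For genes the smallest adjusted p over the alternatives was 0.751 at 6 h and 0.296 at 12 h against untreated cells, and 0.451 for 12 h against 6 h. No probe set was called for 6 h or 12 h against untreated cells under 20 alternatives, with a smallest adjusted p of 0.217 (without 12 h replicate 3), and alternatives were not run on probe sets for 12 h against 6 h. With the replicate block 0 genes were called in each comparison. Directions turned in 51 single-gene values, none of them called, and the causes were not tested beyond what each setting changes. Values below are log2 differences against untreated cells unless 12 h minus 6 h is named.

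Centring on the array median gave 0.46 for FOSL2 at 12 h, and quantile normalization gave -0.093 for IER2 at 12 h and -0.025 for 12 h minus 6 h. With other probe sets, FOSL2 at 12 h was 0.33, 0.11 and 0.030, JUN was 0.029 at 6 h, -0.40 and -0.49 at 12 h and -0.32 for 12 h minus 6 h, and EGR1 at 12 h was -0.63. Averaging all probe sets of a gene gave -0.091 for JUN, -0.21 for JUND, -0.18 for CREB5, -0.22 for ELK4, -0.12 for MAP3K1, -0.33 for ATF3 and -0.015 for KLF4 at 12 h, -0.16 for ELK4 at 6 h and -0.29 for JUND for 12 h minus 6 h. A pseudocount of 32 gave 0.00017 for JUNB at 6 h. Array weights gave 0.093 for JUNB and -0.15 for JUND at 6 h and -0.040 for CREB5 at 12 h, and leaving out both replicate 2 arrays gave -0.042 for CREB5 at 12 h, with and without the block.

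Leaving out 1 array moved the 6 h values from -0.044 (without untreated replicate 3) to 0.33 for FOSL1, -0.32 to 0.26 (without untreated replicate 2) for JUNB, -0.18 (without 6 h replicate 1) to 0.22 for JUND, -1.19 to 0.034 for EGR1 and -0.65 to 0.048 for IER3, the last 2 turning without 6 h replicate 1. At 12 h the range was -0.12 to 0.46 for FOSL1, -0.41 to 0.16 for FOSL2, -0.26 to 0.45 for JUNB and -0.16 to 0.90 for JUND, each turning without 12 h replicate 1, then -0.40 (without 12 h replicate 3) to 0.75 for EGR1 and -0.042 (without untreated replicate 2) to 0.69 for CREB5. For 12 h minus 6 h it was -0.25 to 0.33 for FOSL1, -0.25 to 0.45 for JUNB and -0.18 to 0.89 for JUND, each lowest without 12 h replicate 1. FOS and FOSB are limited by signals near the floor.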
